A study of Mus musculus with 20 samples.

Results

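Colonoids are organoids of the mouse colon, epithelial structures grown from isolated crypts in a gel of basement membrane proteins. Each passage breaks them apart, and the fragments must survive, reseal and start to grow again. The second day post-passage (2 DPP) was compared with the first (1 DPP) to describe this recovery, in 8 of the 20 libraries of a course that covered 1, 2, 3, 5 and 7 DPP. The comparison took every library of these 2 days, that is 4 libraries per day, with 2 cultures per genotype sampled on each day. The WT cultures came from C57BL/6 mice. The Tnfr2-/- cultures came from mice with a germline Tnfrsf1b tm1Mwm allele, carried by every cell of the animal, which disrupts the gene of TNFR2, the second receptor of tumour necrosis factor, so that no cell type is targeted on its own. The study states an age of 8 weeks and both sexes for the mice of its colonoid cultures, and the labels give neither for these libraries. All cultures had been passaged 5 times in growth medium, then passed through a mesh filter and seeded without being split to single cells. The labels number the replicates, and equal numbers within a genotype were taken as cultures of the same mouse, so that each was followed from 1 DPP to 2 DPP, and each genotype rests on 2 cultures.

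Detachment and breakage of an epithelium set off several known programmes. Immediate early genes and NF-kappaB targets respond within minutes to hours and drive cytokines, chemokines and matrix-degrading enzymes. The integrated stress response is a separate programme, in which kinases that sense amino acid shortage, misfolded protein, haem shortage or viral RNA slow general translation while raising translation of the transcription factor ATF4. ATF4 then turns on amino acid transporters, enzymes of serine, asparagine and one-carbon metabolism and the aminoacyl-tRNA synthetases, which load tRNAs with amino acids. Growth after passage draws on ribosome production, lipid synthesis and the cell cycle.

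Values are normalised expression, transcript abundance (TPM) divided by a size factor per library and summed per gene. They summed to between 900655 and 1034275 per library, and between 13007 and 13374 genes had a value of at least 1. Read depth per library cannot be read from such values, so no counting error is given, and values of a few units are imprecise. Tnfrsf1b was at 18.98 and 16.43 in the WT libraries of 1 DPP and at 13.37 and 15.05 in those of 2 DPP. It was at 4.193 and 2.714 in the Tnfr2-/- libraries of 1 DPP and at 4.056 and 2.89 in those of 2 DPP, so that every Tnfr2-/- library lay below every WT library. Its log2 change from 1 to 2 DPP was -0.14 (SE 0.17, limma adjusted p 0.748).

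The labels name epithelial organoids, and the 9 pan-epithelial markers summed to between 11990 and 17870 at 1 DPP and between 15090 and 19250 at 2 DPP. Transcripts of fibroblasts were present as well. All 17 fibroblast and myofibroblast markers passed the filter on low values and summed to between 4915 and 6182 at 1 DPP and between 4579 and 6377 at 2 DPP. Of 12 leukocyte and endothelial markers, 4 passed the filter, and the list summed to between 18.1 and 31.9 at 1 DPP and between 11.4 and 24.6 at 2 DPP. Ptprc, the pan-leukocyte marker CD45, did not pass the filter, with a mean of 0.398 at 1 DPP and 0.261 at 2 DPP. In bulk RNA, fewer cells of a type and less RNA per cell cannot be told apart.

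Among the genes that fell from 1 to 2 DPP were Mmp13, S100a8, Il11 and Ccl2, and among those that rose were Slc7a5, Psat1, Gdf15 and Krt36. Of 13428 genes tested, 99 (0.737%) were called at an adjusted p under 0.05, with 58 (0.432%) higher and 41 (0.305%) lower at 2 DPP. At an unadjusted p under 0.05, 1076 genes (8.01%) were higher and 996 (7.42%) lower, and the median log2 change of all genes was -0.01. All 99 called genes moved the same way in all 4 cultures, which a call made on these same 4 cultures largely fixes. With the libraries rescaled to the same sum, 60 genes were higher and 102 lower, so the balance of directions depends on the scaling. The number of calls rests on all 4 cultures: it was 0 without WT replicate 1, 0 without WT replicate 2, 19 without Tnfr2-/- replicate 1 and 1 without Tnfr2-/- replicate 2. With all 4 cultures it was also 0 in limma with no filter on low values and 0 without the variance trend, where 2319 and 1960 genes had an unadjusted p under 0.05.

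Of the lists examined, the integrated stress response had the largest share of members higher at an unadjusted p under 0.05. All 30 members passed the filter, 10 of them rose, none was called lower, and 29 had a positive log2 change. Of all genes tested, 0.432% were called higher, 0.305% were called lower, and 48.5% had a positive log2 change. These shares, with 8.01% higher and 7.42% lower at an unadjusted p under 0.05, are the background for every list below. The median log2 change of the 30 members was 0.76, against -0.01 for all genes tested. At an unadjusted p under 0.05, 26 members were higher and 1 was lower. Without each culture in turn the number higher stayed between 24 and 26 and the median between 0.66 and 0.85, although no more than 1 member was then called. All 7 enzymes of serine, asparagine and one-carbon synthesis, all 4 amino acid transporters, all 6 aminoacyl-tRNA synthetases and all 3 secreted factors and receptors were higher at an unadjusted p under 0.05 and in each of the 4 cultures.

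Among the transporters, Slc7a5 encodes LAT1, which imports leucine and other large neutral amino acids (chromosome 8, 121881150 to 121907694, GRCm38). In WT it went from 28.4 to 63.1 in replicate 1 and from 20.8 to 51.1 in replicate 2. In Tnfr2-/- it went from 27.9 to 66.4 and from 28.4 to 66.8. The days did not overlap, and the log2 change was 1.20 (SE 0.10, adjusted p 0.0135). Psat1, an enzyme of serine synthesis, rose by 1.16 on the log2 scale (SE 0.13, adjusted p 0.0258). Shmt2, which splits serine into glycine and a one-carbon unit, rose by 0.87 (SE 0.11, adjusted p 0.0370). Psat1 stood at 83.0, 44.4, 55.5 and 70.3 at 1 DPP and at 141.9, 114.0, 142.4 and 160.1 at 2 DPP, in the order WT replicates 1 and 2, then Tnfr2-/- replicates 1 and 2. Mthfd2, the mitochondrial folate enzyme that follows, rose by 1.13 (SE 0.12, adjusted p 0.0222). Asns, asparagine synthetase, had a mean of 86.8 ± 20.4 at 1 DPP and 183.5 ± 30.01 at 2 DPP (SD, n = 4) but missed the threshold (adjusted p 0.0599).

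Of the synthetases, Nars went from 180.1 ± 9.55 to 304.4 ± 18.8 and Gars from 134.2 ± 7.10 to 208.8 ± 18.3 (SD, n = 4). Their log2 changes were 0.75 (adjusted p 0.0283) and 0.63 (adjusted p 0.0473). The log2 changes of the 6 synthetases ranged from 0.38 to 0.75 and those of the 7 enzymes from 0.76 to 1.16.

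Gdf15 encodes a secreted stress cytokine (chromosome 8, 70629393 to 70632456). It went from 14.6 to 47.8 and from 24.8 to 77.6 in WT replicates 1 and 2, and from 38.1 to 208.3 and from 45.7 to 158.2 in Tnfr2-/- replicates 1 and 2. The days did not overlap, although WT replicate 1 at 2 DPP lay close to Tnfr2-/- replicate 2 at 1 DPP, and both Tnfr2-/- cultures were above both WT cultures on each day. The log2 change was 1.86 (SE 0.16, adjusted p 0.0139). Stc2, another secreted protein, had a log2 change of 1.41 that missed the threshold (SE 0.22, adjusted p 0.0538).

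Among the regulators, Trib3, a pseudokinase that restrains ATF4 output, rose from 3.89 ± 0.535 to 17.3 ± 5.79 (SD, n = 4; log2 change 1.86, adjusted p 0.0396). Chac1, which degrades glutathione, rose from 4.77 ± 1.42 to 19.3 ± 8.81 (log2 change 1.73, adjusted p 0.0272). Ddit4, an inhibitor of the growth kinase complex mTORC1, rose by 0.91 (SE 0.12, adjusted p 0.0396). The transcript of Atf4 itself had a log2 change of 0.54 (SE 0.13, adjusted p 0.124). The regulators were the least uniform group of the list, since 5 of 10 were higher in all 4 cultures. Ddit3, which encodes the death-linked factor CHOP, had a log2 change of 0.07 (SE 0.20, adjusted p 0.902), and Ppp1r15a, which encodes GADD34, the phosphatase subunit that ends the response, had -0.84 (SE 0.29, adjusted p 0.253). The sign of the Ddit3 value turned with the libraries rescaled to the same sum and without WT replicate 2 or Tnfr2-/- replicate 1. Of this list, Psat1, Shmt2, Nars, Gars, Ddit4, Asns, Stc2, Atf4 and, among the mediators described later, Ccl7 fall outside the rule for naming genes and were chosen after their values were seen.

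**Figure D1:**
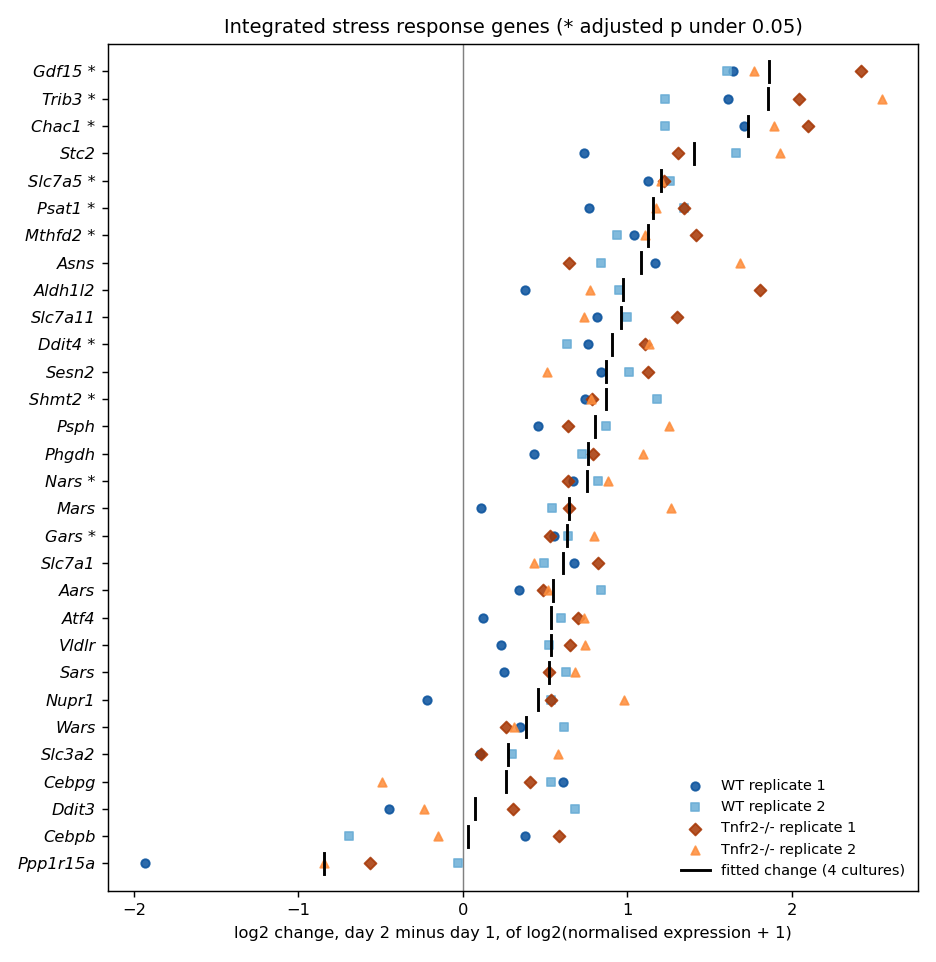
Log2 change from 1 to 2 DPP of the 30 integrated stress response genes (x axis, log2 of normalised expression plus 1). Each point is 1 culture, the black bar is the fitted change over the 4 cultures, and an asterisk marks an adjusted p under 0.05. Of the 30 fitted changes 29 lie to the right of 0, and Ppp1r15a lies to the left.

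Further called genes of amino acid metabolism outside the list are given here after their values were seen. Slc6a9, a glycine transporter, rose from a mean of 11.9 to 33.7 (log2 change 1.45, adjusted p 0.0148). Pck2, the mitochondrial enzyme that makes phosphoenolpyruvate, rose from 16.7 to 44.1 (log2 change 1.40, adjusted p 0.0396). Aldh18a1, an enzyme of proline synthesis, rose by 0.95 (adjusted p 0.0209).

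The promoters of some of these genes carry the composite C/EBP-ATF response element that ATF4 dimers are known to bind, searched here as TGATGNAA on both strands in the 250 bases before each RefSeq start site (GRCm38.p6). It was present for 7 of the 25 integrated stress response genes with a promoter in the table (28.0%), namely Aars, Asns, Chac1, Gars, Nupr1, Slc7a11 and Vldlr, and for 246 of 9889 tested genes with a promoter (2.49%). Among called genes it was present for 3 of 47 that rose, namely Chac1, Gars and Pck2, and for 2 of 28 that fell, namely Mmp10 and Slitrk6. Over all 32851 promoters the share was 3.45%. The list was assembled from genes already known as ATF4 targets, so its share is a description of the list. The promoters of 3 genes, written 5′ to 3′ on the gene's strand with the match in capitals, show where the element lies. The first base of the match was at -193 in Chac1, at -30 in Gars, and at -66 and -47 in Slc7a11, which encodes the cystine importer xCT and had a log2 change of 0.96 (adjusted p 0.0701) and was chosen for its promoter.
Chac1 (chr2:119350992-119351241, plus strand): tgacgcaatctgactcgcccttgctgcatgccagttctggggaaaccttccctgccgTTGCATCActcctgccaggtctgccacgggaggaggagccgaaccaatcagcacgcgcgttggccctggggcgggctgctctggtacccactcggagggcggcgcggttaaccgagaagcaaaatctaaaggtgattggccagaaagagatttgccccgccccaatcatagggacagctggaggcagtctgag
Gars (chr6:55037751-55038000, plus strand): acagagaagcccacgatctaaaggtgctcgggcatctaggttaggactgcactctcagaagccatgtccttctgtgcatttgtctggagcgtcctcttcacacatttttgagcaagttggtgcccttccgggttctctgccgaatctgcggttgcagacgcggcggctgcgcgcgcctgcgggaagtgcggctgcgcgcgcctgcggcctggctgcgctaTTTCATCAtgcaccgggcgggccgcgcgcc
Slc7a11 (chr3:50443614-50443863, minus strand): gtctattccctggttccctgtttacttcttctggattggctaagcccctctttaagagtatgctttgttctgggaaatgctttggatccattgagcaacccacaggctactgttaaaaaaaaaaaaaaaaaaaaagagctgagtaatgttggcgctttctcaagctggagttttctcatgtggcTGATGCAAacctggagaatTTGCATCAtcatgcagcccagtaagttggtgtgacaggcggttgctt

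The 2 largest falls were in Mmp13 and S100a8. Mmp13, collagenase 3, cleaves fibrillar collagen and lies on chromosome 9 (7272514 to 7283331). It went from 320.3 to 18.6 and from 438.1 to 36.0 in WT replicates 1 and 2, and from 346.1 to 34.2 and from 295.0 to 41.7 in Tnfr2-/- replicates 1 and 2. The days were far apart in all 4 cultures, with a log2 change of -3.42 (SE 0.20, adjusted p 0.00879). S100a8, a subunit of the antimicrobial protein calprotectin, went from 106.7 to 4.68 and from 98.2 to 6.47 in WT and from 146.3 to 15.9 and from 111.5 to 19.9 in Tnfr2-/- cultures. Its log2 change was -3.38 (SE 0.28, adjusted p 0.0135), and both WT libraries of 2 DPP lay below both Tnfr2-/- libraries. Mmp13 was still called in 10 of the 14 alternatives and S100a8 in 8.

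Of 34 NF-kappaB targets and inflammatory mediators, 32 passed the filter, 4 fell and none was called higher, with a median log2 change of -0.43. At an unadjusted p under 0.05, 14 were lower and 3 higher, beside 7.42% and 8.01% of all genes tested. Without each culture in turn between 10 and 13 were lower. Besides S100a8, the 4 were Il11, Ccl2 and Ccl7. Il11, a cytokine of the interleukin-6 family (chromosome 7, 4772373 to 4782859), went from 174.9 to 60.7 and from 260.2 to 95.3 in WT and from 115.3 to 41.0 and from 87.6 to 37.9 in Tnfr2-/- cultures. Within each genotype the days did not overlap, while WT replicate 2 at 2 DPP lay above Tnfr2-/- replicate 2 at 1 DPP. Its log2 change was -1.40 (SE 0.10, adjusted p 0.00879).

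Ccl2 and Ccl7 are neighbouring genes for monocyte chemokines (chromosome 11, 82035571 to 82037453 and 82045712 to 82047525). Ccl2 went from 451.2 to 191.8 and from 674.3 to 314.1 in WT and from 914.5 to 384.4 and from 942.5 to 402.0 in Tnfr2-/- cultures. Each culture kept its rank on both days, and the log2 changes per culture lay between -1.248 and -1.099 (fitted -1.20, SE 0.08, adjusted p 0.00879). Ccl7 fell by 1.102 on the log2 scale (SE 0.10, adjusted p 0.0160).

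Not every mediator of the list was lower. Saa3, an acute-phase protein, had means of 861 ± 596 and 2775 ± 1591 (SD, n = 4) and a log2 change of 1.81 (SE 0.29, adjusted p 0.0598). Lcn2, an iron-scavenging defence protein, had a log2 change of 1.34 (SE 0.33, adjusted p 0.133), and Cxcl5, a neutrophil chemokine, 1.11 (SE 0.21, adjusted p 0.0845). None of these passed the threshold. Outside the list, 3 secreted proteins of inflammation or acute phase were among the 12 largest rises. Serpina3n, a protease inhibitor, rose from 31.3 ± 13.98 to 120.5 ± 27.0 (log2 change 2.01, adjusted p 0.0156). Ccl8, a further monocyte chemokine, rose from 35.9 ± 23.2 to 102.8 ± 30.9 (log2 change 1.69, adjusted p 0.0452), while Ccl2 and Ccl7 fell. Hp, haptoglobin, rose from 6.27 ± 3.34 to 19.5 ± 8.56 (log2 change 1.52, adjusted p 0.0273).

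**Figure D2:**
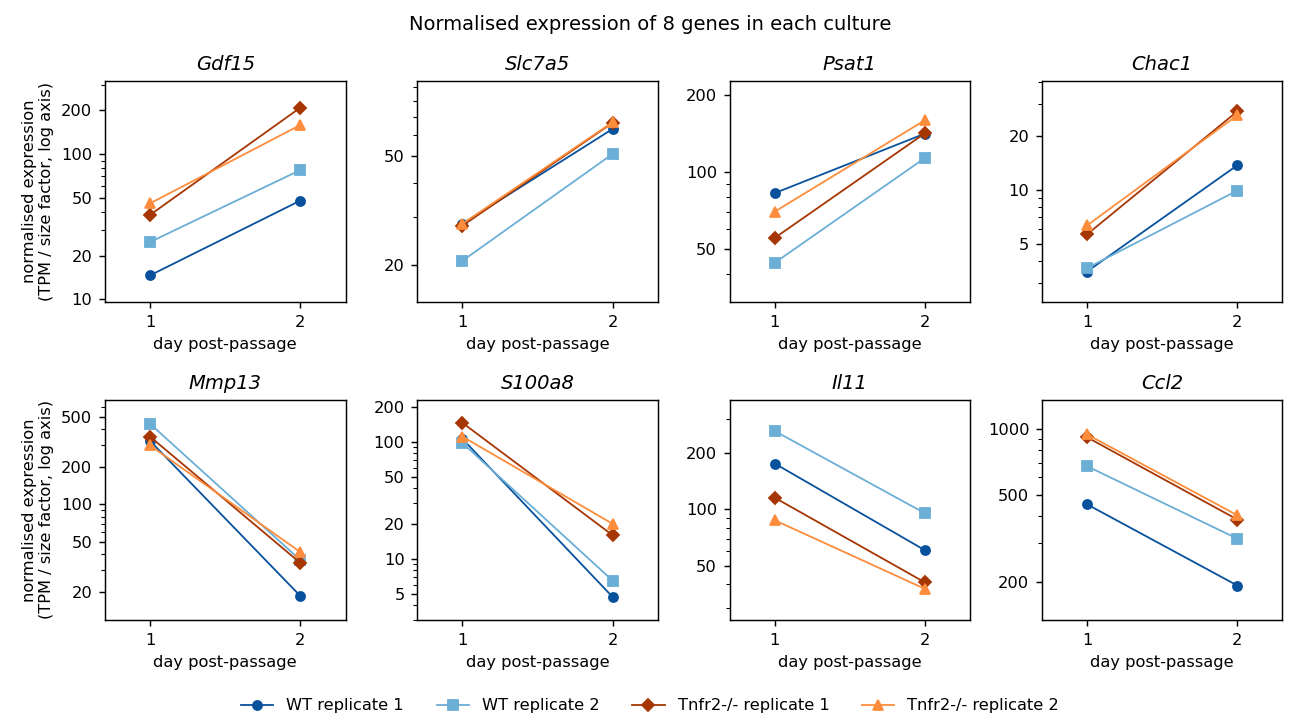
Normalised expression (y axis, logarithmic) at 1 and 2 DPP of 4 genes that rose (top row) and 4 that fell (bottom row). Each line joins the 2 libraries of a culture. All 4 lines run the same way in every panel, and the cultures of the 2 genotypes lie apart for Gdf15, Chac1, S100a8, Il11 and Ccl2 on both days.

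The other large falls were mixed in function. Il1rl1, the interleukin-33 receptor, went from 888.3 ± 92.0 to 165.0 ± 61.8 (log2 change -2.50, SE 0.25, adjusted p 0.0180), while Il33, its ligand, rose from 7.95 ± 2.33 to 18.6 ± 4.07 (log2 change 1.15, adjusted p 0.0477). Gap43, a growth cone protein of neurons, fell from 15.98 ± 3.22 to 2.29 ± 1.30 (log2 change -2.42, adjusted p 0.0160). Stra6, a retinol transporter (log2 change -2.02), Mmd (-1.89), the urea transporter Slc14a1 (-1.64) and the G protein regulator Rgs16 (-1.56) also fell, with adjusted p between 0.00879 and 0.0444. Akr1c18, a steroid dehydrogenase, fell by 2.19 on the log2 scale (adjusted p 0.0173).

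Transcripts of 2 peptide hormones were among them. Cck, cholecystokinin, went from 516.8 to 105.0 and from 245.9 to 74.1 in WT and from 449.6 to 124.2 and from 422.4 to 192.2 in Tnfr2-/- cultures, with no overlap between the days (log2 change -1.75, SE 0.18, adjusted p 0.0209). Tac1, which encodes substance P, fell from 23.8 ± 10.2 to 4.82 ± 1.22 (log2 change -2.04, adjusted p 0.0289). Cck was the only one of 6 tested enteroendocrine markers that was called. Gnat1, a G protein subunit of photoreceptors, was at 17.3 and 9.85 in WT and 2.41 and 9.99 in Tnfr2-/- cultures at 1 DPP, and at 2.99 and 1.83 in WT at 2 DPP, when both Tnfr2-/- libraries listed it at 0 (adjusted p 0.0460). The Gnat1 call was kept in 5 of 14 alternatives and lost with a pseudocount of 0.5 or 5, where the log2 change was -2.86 or -1.19.

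Of 20 tested genes of the EGF family and MAPK feedback, 2 fell and none was called higher, beside 0.305% and 0.432% of all genes tested. At an unadjusted p under 0.05, 5 were lower and 1 higher. Ereg, the EGF receptor ligand epiregulin, went from 290.5 ± 30.3 to 176.1 ± 20.2 (SD, n = 4; log2 change -0.72, SE 0.08, adjusted p 0.0273). Errfi1, an inhibitor that the EGF receptor induces, went from 104.0 ± 6.54 to 63.7 ± 4.92 (log2 change -0.70, SE 0.09, adjusted p 0.0396). Neither overlapped between the days.

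Of 32 tested immediate early genes none was called in either direction, 10 were lower and 0 higher at an unadjusted p under 0.05, and the median log2 change was -0.14. The lower count was 7 without WT replicate 1, 7 without WT replicate 2, 6 without Tnfr2-/- replicate 1 and 9 without Tnfr2-/- replicate 2. The phosphatase gene Dusp5 had a log2 change of -0.74 (SE 0.12, adjusted p 0.0598), and its relative Dusp1 had -0.79 (SE 0.16, adjusted p 0.0934). The transcription factor genes Fos (0.21, adjusted p 0.445), Egr1 (-0.22, adjusted p 0.544) and Atf3 (-0.60, adjusted p 0.292) did not pass the threshold either.

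The promoters of the genes that fell were searched for the AP-1 element TGANTCA, which Fos and Jun dimers are known to bind and which reads as itself on the other strand. It was present before 6 of the 28 called falls with a promoter in the table (21.4%), namely Dhrs9, F2r, Il11, Mmp10, Mmp13 and Slitrk6, before 2 of the 47 called rises (4.26%) and before 596 of the 9889 tested genes with a promoter (6.03%). Over all 32851 promoters the share was 6.75%. These shares are a description of small sets of genes, and whether AP-1 had a part in the falls was not tested. The promoters of Mmp13 and Il11 are shown with the match in capitals, whose first base lay at -35 and at -98. The Il11 window lies inside the annotated span of the gene, which has a start further upstream.
Mmp13 (chr9:7272264-7272513, plus strand): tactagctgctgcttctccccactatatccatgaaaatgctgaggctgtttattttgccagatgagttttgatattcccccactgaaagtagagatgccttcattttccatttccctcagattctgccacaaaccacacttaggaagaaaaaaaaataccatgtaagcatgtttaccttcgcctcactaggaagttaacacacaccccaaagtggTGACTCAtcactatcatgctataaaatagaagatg
Il11 (chr7:4778142-4778391, minus strand): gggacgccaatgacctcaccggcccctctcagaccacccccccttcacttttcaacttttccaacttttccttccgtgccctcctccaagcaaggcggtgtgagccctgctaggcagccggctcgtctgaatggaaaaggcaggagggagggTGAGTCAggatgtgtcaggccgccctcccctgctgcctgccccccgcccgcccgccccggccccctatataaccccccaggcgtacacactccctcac

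Other stress programmes had few or no called genes. Of 23 heat shock chaperones none was called, with 6 higher and 2 lower at an unadjusted p under 0.05. The mitochondrial chaperone Hspd1 had a log2 change of 0.43 (adjusted p 0.0959) and the small chaperone Hspb1 -0.60 (adjusted p 0.115). Of 23 unfolded protein response genes none was called, the median was 0.01, and Hspa5, the chaperone BiP of the endoplasmic reticulum, had a log2 change of 0.04 (SE 0.10, adjusted p 0.881). None of 23 p53 targets was called, 7 were higher and 2 lower at an unadjusted p under 0.05, and Cdkn1a, the cell cycle inhibitor p21, had a log2 change of 0.08 (SE 0.10, adjusted p 0.750). The signs of the Hspa5 and Cdkn1a values turned with the libraries rescaled to the same sum.

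Of 27 targets of the antioxidant factor NRF2, Gsta4 rose from 58.4 ± 15.7 to 97.1 ± 21.7 (log2 change 0.74, adjusted p 0.0396) and Akr1b8 fell from 376.3 ± 65.4 to 175.3 ± 38.8 (log2 change -1.11, adjusted p 0.0296). Both detoxify reactive aldehydes, and 24 of the 27 had a positive value (median 0.21), beside 48.5% of all genes tested. Of 6 metallothionein and zinc export genes, Mt4, a metallothionein of stratified epithelium, was at 13.99, 0.774, 0 and 2.40 at 1 DPP and at 47.3, 9.33, 10.2 and 11.9 at 2 DPP, in the order WT replicates 1 and 2, then Tnfr2-/- replicates 1 and 2. Its fitted log2 change of 2.41 (adjusted p 0.0396) depends on the pseudocount, and 1 library lists it at 0. The Mt4 call was kept in 6 of 14 alternatives and lost with a pseudocount of 0.5, and the log2 change ran from 1.39 to 2.80. Mt1 had a log2 change of -0.32 (adjusted p 0.254). Of 32 hypoxia and glycolysis genes and 31 proteasome genes none was called, with 11 and 1 higher and 4 and 1 lower at an unadjusted p under 0.05. Of 25 interferon-stimulated genes none was called, 1 was higher and 6 lower at that threshold, and the median was -0.35.

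**Figure D3:**
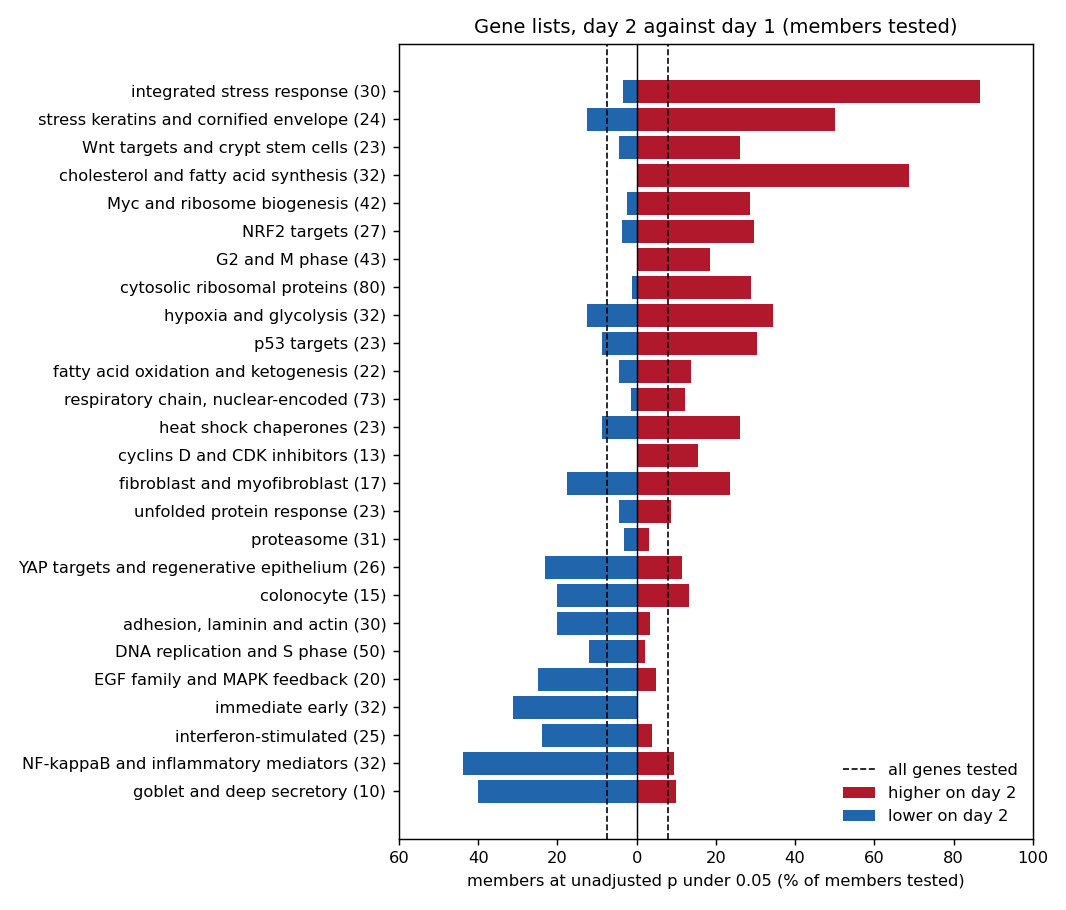
Share of the tested members of each gene list at an unadjusted p under 0.05 (x axis, percent of members), higher at 2 DPP to the right and lower to the left. The number tested is in brackets, and the dashed lines mark all genes tested (8.01% higher, 7.42% lower). The integrated stress response, at 26 of 30, extends farthest to the right.

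For re-entry into growth, lists of synthesis and of the cell cycle were examined. Of 32 genes of cholesterol and fatty acid synthesis, 1 rose, 31 had a positive log2 change, and the median was 0.37. Of all genes tested, 48.5% were positive and 8.01% were higher at an unadjusted p under 0.05. At that threshold, 22 of the 32 were higher and none lower. That count was 18 without WT replicate 1, 12 without WT replicate 2, 18 without Tnfr2-/- replicate 1, 17 without Tnfr2-/- replicate 2 and 14 with the libraries rescaled to the same sum. Scd2, which desaturates fatty acids, rose from 366.5 ± 79.2 to 606.8 ± 108 (SD, n = 4; log2 change 0.73, SE 0.09, adjusted p 0.0361). Pmvk, a kinase of the mevalonate pathway, had a log2 change of 0.70 (adjusted p 0.0789).

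Of 42 Myc targets and ribosome biogenesis genes none was called, 12 were higher and 1 lower at an unadjusted p under 0.05, and the median was 0.21. Npm1, a nucleolar assembly factor, had a log2 change of 0.46 (adjusted p 0.109), and Myc itself -0.05 (SE 0.10, adjusted p 0.854). Odc1, the first enzyme of polyamine synthesis, was on the other side (log2 change -0.37, adjusted p 0.145). Of 80 tested cytosolic ribosomal protein genes none was called, 23 were higher and 1 lower at an unadjusted p under 0.05, 66 had a positive value, and the median was 0.18. Without WT replicate 1 the higher count was 38, without WT replicate 2 it was 13, without Tnfr2-/- replicate 1 it was 10, and without Tnfr2-/- replicate 2 it was 8. Among 73 nuclear-encoded respiratory chain genes, only Ndufa10 of complex I was called, and it rose (log2 change 0.74, SE 0.10, adjusted p 0.0426). At an unadjusted p under 0.05, 9 were higher and 1 lower, beside 8.01% and 7.42% of all genes tested. The list median was 0.01 in WT, with 37 positive, and 0.21 in Tnfr2-/- cultures, with 68 positive.

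No cell cycle gene on the lists was called. Of 43 G2 and M phase genes, 38 had a positive log2 change, 8 were higher and 0 lower at an unadjusted p under 0.05, and the median was 0.19. The higher count was 4 without WT replicate 1, 4 without WT replicate 2 and 3 with the libraries rescaled to the same sum. Without each culture in turn the median ran from 0.09, without WT replicate 2, to 0.26, without Tnfr2-/- replicate 2, and the number positive from 31 to 40. Cdc20, which triggers chromosome separation, had means of 47.6 ± 12.1 and 76.7 ± 8.35 (SD, n = 4; log2 change 0.71, SE 0.13, adjusted p 0.0796). Mki67, the proliferation marker Ki-67, was at 64.8, 39.6, 52.7 and 59.4 at 1 DPP and 85.9, 56.5, 62.2 and 49.4 at 2 DPP, in the order WT replicates 1 and 2, then Tnfr2-/- replicates 1 and 2 (log2 change 0.22, SE 0.15, adjusted p 0.532). Its values overlapped between the days and 1 culture went down. Of 50 DNA replication and S phase genes, 1 was higher and 6 lower at an unadjusted p under 0.05, with a median of -0.11. Ccnd1 and Ccnd2, the D cyclins that open the cycle, had log2 changes of 0.52 (adjusted p 0.108) and 0.54 (adjusted p 0.127).

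Of 24 tested stress keratin and cornified envelope genes, 3 rose and none was called lower, with 12 higher and 3 lower at an unadjusted p under 0.05. Of all genes tested, 0.432% were called higher, and 8.01% were higher and 7.42% lower at that threshold. Tgm1, which cross-links the cornified envelope, went from 31.2 to 94.3 and from 23.8 to 68.0 in WT and from 31.0 to 71.4 and from 18.1 to 46.0 in Tnfr2-/- cultures, with no overlap between the days (log2 change 1.38, SE 0.12, adjusted p 0.0135). Krt14, a basal keratin, rose from 600.5 ± 136 to 1580 ± 404 (log2 change 1.38, adjusted p 0.0180). Krt36, a keratin outside the list, rose from 39.4 ± 22.2 to 158.5 ± 51.8 (log2 change 2.09, SE 0.15, adjusted p 0.00879). Sprr2a2 rose from 6968 to 14390 (log2 change 1.06, adjusted p 0.0273), while Sprr2h, at 23.3 and 1.06, had a log2 change of -3.33 that missed the threshold (adjusted p 0.0644). The Sprr2 genes are near-identical neighbours among which reads can be divided wrongly.

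Of 23 Wnt targets and crypt stem cell genes, Hopx, a homeodomain protein of slow-cycling stem cells, rose from 35.9 ± 12.7 to 97.1 ± 33.7 (log2 change 1.39, SE 0.14, adjusted p 0.0180). Of the 23, 18 had a positive value, beside 48.5% of all genes tested, with a median of 0.38. At an unadjusted p under 0.05, 6 were higher and 1 lower. Lrig1, Bmi1 and Lef1 were among the members with a negative value, and none of them was called. Lgr5, the marker of cycling crypt stem cells, was low, with means of 1.76 and 3.76 (log2 change 0.74, SE 0.33, adjusted p 0.352). Of 15 tested colonocyte genes, 2 were higher and 3 lower at an unadjusted p under 0.05, 7 had a positive value, and the median was -0.06. The carbonic anhydrase genes Car1 and Car2 were called, and both rose. Car2 went from 75.5 ± 16.9 to 141.4 ± 21.3 (log2 change 0.91, SE 0.10, adjusted p 0.0273). Car1 was at 44.8 and 114.7 in WT replicate 1 on the 2 days and between 0.974 and 6.03 in all libraries of the other cultures, so that its level rests on WT replicate 1 while its rise was seen in each culture (log2 change 1.48, adjusted p 0.0404). The Car1 call was lost without any 1 of the 4 cultures, as most calls were, and also with a pseudocount of 5.

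Other differentiated markers were on the opposite side without passing the threshold. They were Lypd8 of the mucus-facing colonocyte (log2 change -2.10, adjusted p 0.0508), Krt20 of the surface (-0.83, adjusted p 0.173) and the goblet cell products Spink4 (-2.46, adjusted p 0.0621) and Tff3 (-2.81, adjusted p 0.0778). At 1 DPP Spink4 was at 329.0 in WT replicate 1 and between 9.65 and 23.3 in the other cultures, and Tff3 at 261.4 and between 5.16 and 20.96, and at 2 DPP Spink4 was listed at 0 in 1 library and Tff3 in 2. Agr2, another goblet cell gene, had a log2 change of 1.09 (adjusted p 0.165). Of 10 tested goblet and deep secretory genes 1 was higher and 4 lower at an unadjusted p under 0.05. Of 3 tuft cell genes 1 was higher and none lower at that threshold. None of these 13 genes was called.

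Of 26 YAP targets and genes of regenerative epithelium, Il33 rose and Ereg fell. Ly6a, which encodes the regenerative marker Sca-1, had means of 2516 ± 144 and 2877 ± 400 (SD, n = 4; log2 change 0.18, SE 0.10, adjusted p 0.450), and Clu, clusterin, a log2 change of -0.75 (SE 0.12, adjusted p 0.0598). On a reference list of fetal intestine genes used by the study, 272 were tested, 9 rose and 2 fell, beside 0.432% and 0.305% of all genes tested. At an unadjusted p under 0.05, 67 were higher and 23 lower, 162 had a positive value, and the median was 0.10. Fabp5, a fatty acid carrier on it, rose from 77.9 ± 31.5 to 218.9 ± 66.3 (log2 change 1.51, SE 0.11, adjusted p 0.00879), and Ly6c1 rose by 1.30 (adjusted p 0.0235). On its 3 progenitor lists, with 44, 46 and 41 genes tested, 0, 0 and 2 rose and none fell, and the 2 were Car2 and Tmprss2.

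Of the 17 fibroblast markers, 4 were higher and 3 lower at an unadjusted p under 0.05. Grem1, a secreted BMP inhibitor, fell from 558.5 ± 91.9 to 326.9 ± 87.0 (log2 change -0.79, SE 0.09, adjusted p 0.0283), and no other was called. The collagen gene Col1a2 had a log2 change of 0.59 (adjusted p 0.0727) and the proteoglycan gene Dcn -0.60 (adjusted p 0.0960). The list median was 0.06, and its summed level overlapped between the days. Il11, Ccl2, Ccl7, Mmp13, Il1rl1, Ccl8, S100a4 and Efemp1 are known to be expressed by stromal cells, and the part of each cell type in their change was not tested. S100a4 rose from 129.9 ± 52.4 to 381.4 ± 162 (log2 change 1.50, adjusted p 0.0383), and the matrix gene Efemp1 from 8.94 ± 2.62 to 29.6 ± 10.4 (log2 change 1.58, adjusted p 0.0273).

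Both genotypes were compared next. With 2 cultures each, 3 genes (0.0223%) were called in WT, namely Krt36, Mmp13 and S100a8, and 1 gene (0.00745%) in Tnfr2-/- cultures, the processed pseudogene Gm12715, with 1554 and 1286 genes at an unadjusted p under 0.05 in limma. That fit has 2 residual degrees of freedom. Without any 1 culture it has fewer, the lone culture of a genotype is assumed to vary like the other genotype, and no gene was called, which says little about the 3 WT calls. Across the 13428 genes the WT and Tnfr2-/- log2 changes correlated at a Pearson r of 0.255 and a Spearman rho of 0.304. Over the 6278 genes with a mean of at least 20 the Pearson r was 0.445. Over those genes single cultures correlated with each other between 0.157 and 0.430, with 0.342 between the 2 WT cultures and 0.157, the lowest value, between the 2 Tnfr2-/- cultures. These are correlations across genes, which are not independent replicates, and the libraries of a day may share handling. The values are a description with no test.

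Of 820 genes higher in WT at an unadjusted p under 0.05, 649 (79.1%) had a positive log2 change in Tnfr2-/- cultures, where 6381 of all 13428 genes were positive. Their median was 0.77 in WT and 0.32 in Tnfr2-/- cultures. Of 734 genes lower in WT, 569 (77.5%) were negative in Tnfr2-/- cultures, with medians of -0.82 and -0.34. In the other direction, 506 of 649 genes (78.0%) higher in Tnfr2-/- cultures were positive in WT and 459 of 637 lower ones (72.1%) were negative. The genes were chosen by their p in 1 genotype, which by itself makes the median in the other genotype smaller, so the sizes are not a finding.

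The difference between the genotypes in the day effect was tested for every gene. It was called for 1 gene (0.00745%), Gm12715, and 676 genes (5.03%) had an unadjusted p under 0.05. Over the 99 genes called between the days, 6 had an unadjusted p under 0.05 for the difference and none passed adjustment, where the smallest adjusted p was 0.967. The median absolute difference was 0.18 and the largest was 1.21, for S100a8, beside a median 95% half-width of 0.67. The 99 genes were called in a fit whose residual holds the difference between the genotypes, which favours genes with a small difference, so these sizes are a description.

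**Figure D4:**
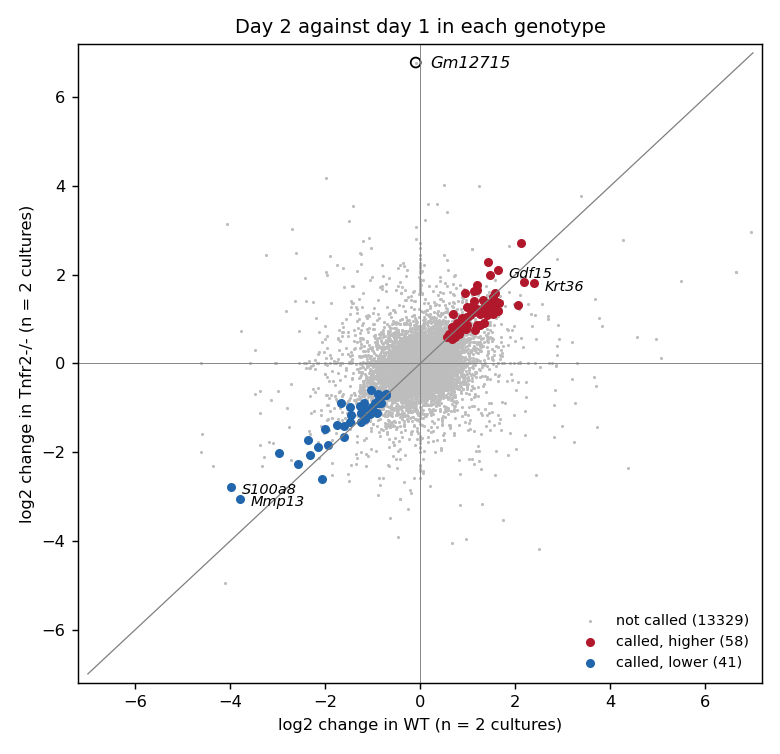
Log2 change from 1 to 2 DPP in WT (x axis) and Tnfr2-/- cultures (y axis), each over 2 cultures, for 13428 genes. The 58 genes called higher (red) and 41 called lower (blue) lie along the line of equal change, where a test on all 4 cultures places them, and Gm12715 stands apart at the top.

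The median of the integrated stress response was 0.63 in WT and 0.80 in Tnfr2-/- cultures, 28 of 30 members were positive in each, and none of the 30 had an unadjusted p under 0.05 for the difference. The nearest was Trib3, which changed by 0.88 more in Tnfr2-/- cultures (SE 0.38, unadjusted p 0.0635, adjusted p 0.967). Cholesterol and fatty acid synthesis had medians of 0.44 and 0.30, with 30 of 32 positive in each genotype. The interferon-stimulated list had medians of -0.37 and -0.34.

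Other lists were farther apart between the genotypes, although no member was called for the difference. The G2 and M phase list had a median of 0.42 in WT, with 41 of 43 positive, and -0.04 in Tnfr2-/- cultures, with 17 positive. The medians were 0.36 and 0.50 in the WT cultures and 0.01 and -0.05 in the Tnfr2-/- cultures, so that the changes did not overlap between the genotypes. Summed over the list, WT went from 2240 to 2821 and from 1511 to 2253, and Tnfr2-/- from 2171 to 2223 and from 2184 to 2218. WT replicate 2 thus had the lowest sum at 1 DPP and lay near the Tnfr2-/- cultures at 2 DPP. Of the 43, 9 had an unadjusted p under 0.05 for the difference, against 5.03% of all genes. Kif23, needed to complete cell division, went from 117.2 to 190.2 and from 106.9 to 217.9 in WT and from 124.9 to 116.0 and from 141.1 to 138.5 in Tnfr2-/- cultures (difference -0.92, SE 0.21, unadjusted p 0.00533, adjusted p 0.967). Kif23 was named after its values were seen. Members of such a list vary together within a culture, and 2 cultures per genotype are too few to separate an effect of genotype from differences between individual mice.

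Ribosomal protein genes showed the opposite arrangement, with a median of 0.03 in WT and 0.34 in Tnfr2-/- cultures, 44 and 78 of 80 positive, and 14 of 80 at an unadjusted p under 0.05 for the difference. Immediate early genes had medians of -0.34 and 0.06, with 4 and 17 of 32 positive and 4 at that threshold. DNA replication and S phase genes had medians of 0.06 and -0.28, with 29 and 9 of 50 positive and 7 at that threshold. Among inflammatory mediators, with medians of -0.50 and -0.24, Lcn2 had the lowest p for the difference. It went from 9.33 to 36.3 and from 39.5 to 209.1 in WT and from 48.8 to 65.1 and from 100.8 to 168.2 in Tnfr2-/- cultures (difference -1.54, SE 0.27, unadjusted p 0.00179, adjusted p 0.926).

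**Figure D5:**
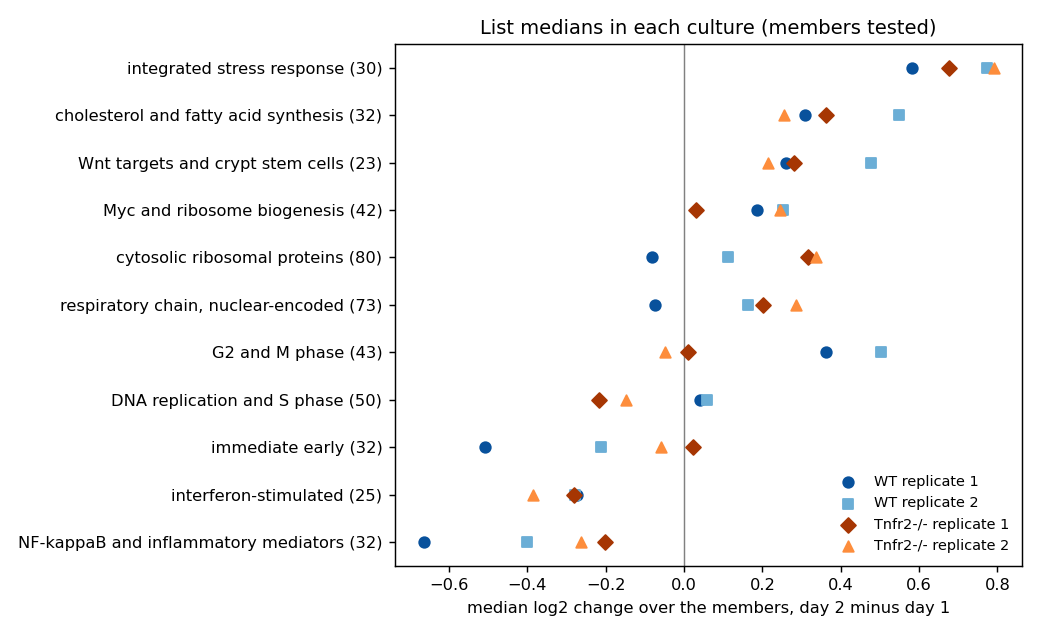
Median log2 change from 1 to 2 DPP over the members of 11 gene lists (x axis) in each of the 4 cultures (points), with the number of members tested in brackets. The 4 cultures lie together to the right of 0 for the integrated stress response, while WT and Tnfr2-/- cultures are apart for the G2 and M phase list.

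From 2 to 3 DPP, fitted in the same way with the same libraries of 2 DPP, 0 of 13365 genes were called in limma (0%), and 1816 had an unadjusted p under 0.05. With all 20 libraries in 1 fit, 7 were called, all higher. The day means of the genes above are given side by side for 1, 2, 3, 5 and 7 DPP (n = 4 each). Slc7a5 had means of 26.3, 61.9, 54.6, 33.1 and 20.5, so that its highest value was at 2 DPP and its 7 DPP value was below that of 1 DPP. Gdf15 had means of 30.8, 123.0, 107, 75.7 and 55.3. Psat1 had means of 63.3, 139.6, 146, 76.2 and 68.1. At 7 DPP the means of Gdf15 and Psat1 were still above those of 1 DPP, as were those of Ddit4, Slc6a9 and Trib3. Ddit4 had means of 73.1, 142.1, 209, 247 and 253, Slc6a9 11.9, 33.7, 35.7, 38.5 and 36.6, and Trib3 3.89, 17.3, 16.9, 13.9 and 12.2. The integrated stress response list summed to between 2209 and 2649 at 1 DPP, between 2978 and 4293 at 2 DPP and between 3337 and 4819 at 7 DPP.

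For the genes that fell, the later means differ by genotype and are given apart, each over 2 cultures and with no test. Mmp13 had means of 379.2, 27.3, 9.18, 34.2 and 289 in WT and 320.5, 37.9, 80.9, 470 and 839 in Tnfr2-/- cultures, so that the 7 DPP mean was above that of 1 DPP in Tnfr2-/- and below it in WT. Il1rl1 had means of 966, 127.7, 14.2, 10.98 and 388 in WT and 810.6, 202.3, 239, 1110 and 1302 in Tnfr2-/- cultures. Il11 had means of 217.5, 78.0, 26.9, 6.60 and 237 in WT and 101.4, 39.4, 53.4, 443 and 291 in Tnfr2-/- cultures. At 5 DPP the WT means of Il1rl1 and Il11 were below those of 2 DPP, and the Tnfr2-/- means were above those of 1 DPP. Ccl2 had means of 562.7, 253.0, 103, 69.5 and 87.4 in WT and 928.5, 393.2, 229, 312 and 427 in Tnfr2-/- cultures, below the 1 DPP mean on every later day in both. Over both genotypes Tgm1 had means of 26.0, 69.9, 51.8, 24.9 and 10.3 and Krt14 600.5, 1580, 1965, 1165 and 447, with the highest mean at 2 and at 3 DPP.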

How the data were processed

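Colonoid mRNA was sequenced as stranded single-end reads. Per the submitters' notes, the authors processed reads with CASAVA and quantified transcripts with kallisto and sleuth on mm10.  The deposited values are a signal, namely TPM that the authors scaled with 1 size factor for each library. The study gives an approximate read number for all samples, and the depth of each library is not known from these values. Other deposited columns hold the authors' tests of genotype per transcript (p-values, q-values, test statistics, natural log means and variance terms) and were not used. Of 113974 lines, 781 repeats were dropped and 199 transcripts without a gene name left out (at most 0.0989% of a library), and values were summed over 35240 gene symbols. Then log2(value + 1) was modelled using limma 3.58.1 (R 4.3.3) and its variance trend, for genes with a mean of at least 1 over the 8 libraries. Fold changes are on that scale and understate changes of low genes. The day effect was fitted with a term for each of 4 cultures, which contains genotype, leaving 3 residual degrees of freedom. P-values were Benjamini-Hochberg adjusted over all genes tested. The same model with a day effect per genotype gave the WT and Tnfr2-/- effects and their difference. The code was tested on simulated data.

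The replicate number was taken to mark the mouse. Deviations of replicate 1 from replicate 2 correlated across genes between the days at 0.139 in WT and 0.012 in Tnfr2-/- cultures. The gene lists, the comparison and its terms were chosen with earlier results of these data known. Genes were named by a rule: the 12 largest changes each way among called genes that moved the same way in every culture with a mean of at least 5 on the higher day, the 3 lowest p each way per list, and a few fixed names. Exceptions are stated. Promoters are from RefSeq on GRCm38.p6, where 75 of the 99 called genes matched, and coordinates are from GENCODE M21 on GRCm38. Alternatives were other pseudocounts, filters, scalings, samples and models.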

Additional observations from a re-analysis of the deposited data

Results flagged for a closer look

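The difference of the day effect between the genotypes was called for Gm12715 (chromosome 4, 103563402 to 103564529, GRCm38), a processed pseudogene. In the Tnfr2-/- cultures Gm12715 was near 0 in both libraries of 1 DPP, with a mean of 1.335e-06, and at 109.0 and 109.1 at 2 DPP. WT replicate 1 was at 58.6 and 50.2, and WT replicate 2 was listed at 0 and at 0.014. The fitted log2 difference, Tnfr2-/- minus WT, was 6.88 (SE 0.34, limma adjusted p 0.0283), a value that depends on the pseudocount because of the values at or near 0. The call was lost without the replicate block, with no filter on low values, with all 20 libraries in 1 fit and without a trend. The WT cultures themselves differed on both days, and reads of a processed pseudogene can be exchanged with the gene it was copied from. The part of that exchange in the values was not tested. Groups of 2 libraries are too small for a check of outlying samples.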

How the results depend on the processing

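The numbers of genes called between 2 and 1 DPP, in WT, in Tnfr2-/- cultures, for the difference, and between 3 and 2 DPP were 99, 3, 1, 1 and 0. They became 0, 0, 0, 0 and 0 with no filter on low values, 158, 21, 2, 1 and 0 with a mean of at least 5, 114, 90, 17, 0 and 7 with all 20 libraries in 1 fit, 162, 11, 2, 1 and 0 with libraries rescaled to the same sum, 120, 3, 2, 1 and 0 with the median ratio, and 0, 0, 1, 0 and 0 without a trend. At an unadjusted p under 0.05, limma gave 2319 genes with no filter and 1960 without a trend for the first comparison. Without the replicate block they were 98, 10, 1, 0 and 0, and 68 of the 98 were among the 99. The Tnfr2-/- call without the block was a fall, so it was not Gm12715, which rose. Leaving out 1 culture gave 0 to 19 calls for the first comparison and 0 to 0 for WT, Tnfr2-/- and the difference. Pseudocounts of 0.5 and 5 gave 97 each. All 99 genes kept their direction in the 14 alternatives, which their equal direction in the 4 cultures largely fixes, and the 54 called genes named here lost their call in 357 of 756 cases. The cause was not tested. Signs turned with the same sum for Ddit3 (-0.008), Hspa5 (-0.044) and Cdkn1a (-0.007), and on leaving out a culture for Ddit3 (-0.127 to 0.25) and Hspa5 (-0.019 to 0.097). The 3 residual degrees of freedom and the lack of a depth for each library limit the precision.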
